A study of Homo sapiens with 8 samples.

Results

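The angiopoietin and VEGF family was followed as 10 genes, namely the ligands ANGPT1, ANGPT2, VEGFA, VEGFB, VEGFC and PGF, the related secreted protein ANGPTL4, and the receptors TEK, TIE1 and FLT1. The set was chosen by the RNA levels of ANGPT2, which were lower after SMARCB1 was switched on, and the other members were taken because they are its fellow ligands and receptors. They were 10 of the 69215 genes listed per library. The expression filter kept 7 of them among 15931 genes tested, while VEGFC, TEK and TIE1 had too few reads to be tested.

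Angiopoietins bind the receptor tyrosine kinase TEK, also called TIE2, on endothelial cells. ANGPT1 activates this receptor and keeps vessels quiet and tight, ANGPT2 usually opposes ANGPT1 and loosens vessels, and TIE1 is a partner receptor of TEK. VEGF ligands act on a neighbouring set of endothelial receptors, in which VEGFA binds FLT1 and KDR, VEGFB and PGF bind FLT1, and VEGFC binds FLT4 and KDR to drive lymphatic growth.

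The cells were G401, a kidney rhabdoid tumor line without SMARCB1, a core subunit of the SWI/SNF chromatin remodelers. G401 lines with a Tet-On cassette expressed SMARCB1 (the SMARCB1 line) or GFP (the GFP line) when given doxycycline (Dox), and both lack their own SMARCB1. Cells received 0.1 µg/ml Dox or the solvent DMSO for 12 h, which gave 4 groups of 2 libraries, SMARCB1 DMSO, SMARCB1 Dox, GFP DMSO and GFP Dox. Several plates were pooled per condition according to the study's methods, nothing used here says whether each line was a clone or whether replicates were separate cultures, and p-values then measure only the spread between these libraries, which may be technical.

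Reads assigned to genes numbered 29632090 to 37597477 per library. SMARCB1 had 0 counts in the 4 GFP-line libraries, 0.343 and 0.637 CPM (reads scaled to a common library size with TMM factors) in SMARCB1 DMSO, and 856 and 841 CPM in SMARCB1 Dox. The rhabdoid markers VIM, KRT8 and KRT18 lay between 212 and 1310 CPM in all 8 libraries and differed between the lines, as given below. SMARCB1 DMSO replicate 1 stood apart with 27.9% of its counts on mitochondrially encoded genes, against 18.9% to 23.9% in the other libraries, so results that rest on it are also given without it. Markers of the cells in which Tie and VEGF receptors are best known ranged from no read to abundant. Of 14 endothelial genes, EMCN and ROBO4 had no count in any library and 6, these included, had at most 3 counts in every library, while EGFL7 and MMRN1 were well read and are described with the results. In bulk RNA, fewer cells of a type and less RNA per cell cannot be told apart.

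The stretch of 250 bases before the RefSeq start site (GRCh38.p14) is shown for 3 members with different results. VEGFB was the member besides ANGPT2 that passed the test in the SMARCB1 line, FLT1 was a receptor with few reads that lay highest in SMARCB1 Dox, and TIE1 was a receptor with almost no read. The RefSeq table matched 7 members with 9 windows, and ANGPT1, ANGPT2 and VEGFA had no entry. Capitals mark 3 motifs on either strand, the TATA motif TATAAA, the cAMP response motif TGACGTCA and the GC box GGGCGG, and overlapping GC boxes run together. The VEGFB window lies on the plus strand at chr11:64234334-64234583, the FLT1 window on the minus strand at chr13:28495129-28495378, and the TIE1 window on the plus strand at chr1:43300732-43300981.
VEGFB: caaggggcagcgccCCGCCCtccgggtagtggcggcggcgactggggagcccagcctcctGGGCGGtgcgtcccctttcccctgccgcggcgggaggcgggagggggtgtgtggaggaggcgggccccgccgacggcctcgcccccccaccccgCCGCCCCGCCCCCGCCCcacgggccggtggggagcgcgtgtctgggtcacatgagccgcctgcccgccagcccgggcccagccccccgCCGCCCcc
FLT1: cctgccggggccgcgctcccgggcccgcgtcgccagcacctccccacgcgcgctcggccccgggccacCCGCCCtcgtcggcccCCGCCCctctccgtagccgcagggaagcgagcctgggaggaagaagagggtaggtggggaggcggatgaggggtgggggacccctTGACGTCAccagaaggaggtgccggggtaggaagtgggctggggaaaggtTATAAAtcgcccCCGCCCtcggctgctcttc
TIE1: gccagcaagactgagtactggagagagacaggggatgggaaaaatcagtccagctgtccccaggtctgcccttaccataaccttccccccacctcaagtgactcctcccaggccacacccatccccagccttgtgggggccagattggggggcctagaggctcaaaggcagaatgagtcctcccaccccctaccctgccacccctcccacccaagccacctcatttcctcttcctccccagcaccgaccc

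The 3 windows differed widely in composition. The VEGFB window was 82.8% G and C with 30 CpG pairs and 6 GC boxes, and 98.7% of the 35116 windows of the table had a lower GC content. The FLT1 window held 73.2% G and C, 25 CpG pairs, 3 GC boxes, 1 TATA motif and 1 cAMP response motif. The TIE1 window held 61.6% G and C with 1 CpG pair and none of the 3 motifs. Over all windows the median was 58.0% G and C with 11 CpG pairs, and GGGCGG was found in 42.6%, TATAAA in 10.7% and TGACGTCA in 1.65%. ACGTG and GCGTG, the letters bound by hypoxia-inducible factors, were searched on both strands as well. ACGTG was found in the ANGPTL4 window alone among the 9, and GCGTG in 4 members' windows, those of VEGFC, VEGFB, FLT1 and PGF, against 18.5% and 32.2% of all windows. These matches describe the letters and were not tested against the RNA levels.

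ANGPT2 had the highest level of the family in each group when levels were taken over all exons, and ANGPT1 or VEGFB came next. Per kb of exon, where levels of different genes can be compared, ANGPT2 stood at 29.0 ± 6.26 CPM (SMARCB1 DMSO), 13.4 ± 0.972 (SMARCB1 Dox), 19.1 ± 1.07 (GFP DMSO) and 18.8 ± 0.623 (GFP Dox), as mean ± SD with n = 2. ANGPT1 stood at 9.19 ± 1.23, 10.7 ± 0.597, 2.93 ± 0.272 and 3.01 ± 0.219 CPM per kb in the same groups. VEGFB ranged from 1.66 to 4.15 and VEGFA from 1.11 to 1.56 CPM per kb as group means. ANGPTL4 lay between 0.333 and 0.468 and PGF between 0.106 and 0.313, and the group means of VEGFC, FLT1, TEK and TIE1 were all below those of PGF. ANGPT2 was thus first in each group, followed by ANGPT1 in the SMARCB1 line and by VEGFB in the GFP line. In SMARCB1 DMSO, VEGFB and VEGFA (1.66 ± 0.0405 and 1.37 ± 0.318) and also ANGPTL4 and PGF (0.333 ± 0.0382 and 0.269 ± 0.137) differed by less than the spread between replicates. The order depended on the length used. With the longest annotated transcript in place of all exons, ANGPT1 (17.5) and ANGPT2 (16.8 CPM per kb) changed places in SMARCB1 Dox, PGF passed ANGPTL4 there, and ANGPT1 passed VEGFB in both GFP groups.

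**Figure D1:**
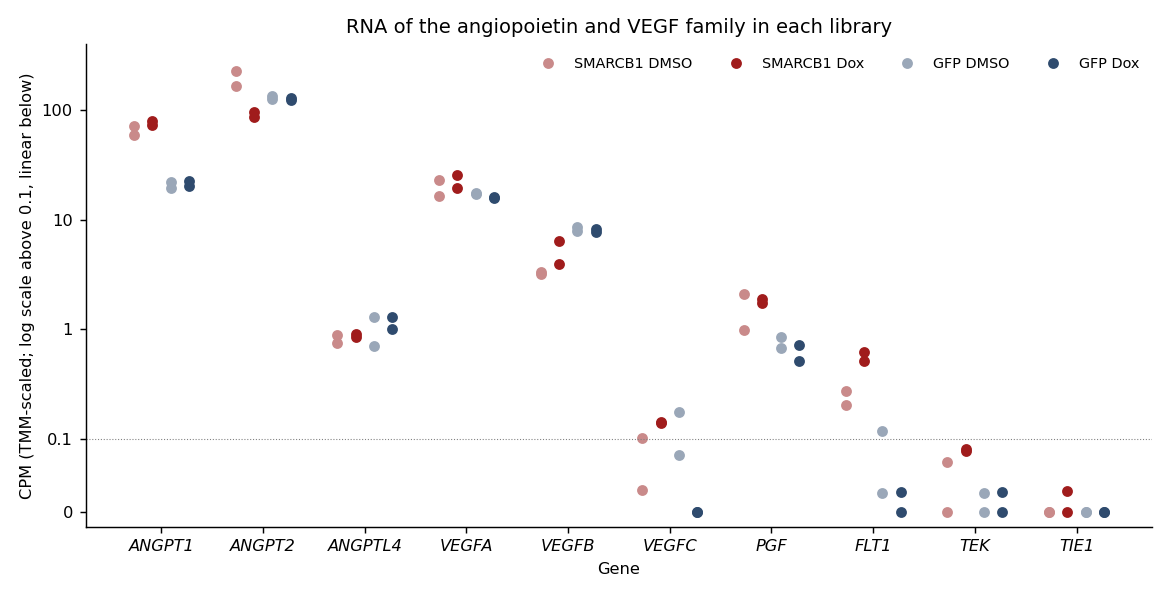
RNA level of the 10 members in each library, in TMM-scaled CPM on a vertical axis that is logarithmic above 0.1 and linear below, with 1 point per library and colors for the 4 groups. ANGPT2 runs from 86.4 CPM in SMARCB1 Dox to 227 CPM in SMARCB1 DMSO, ANGPT1 is far lower in the GFP line than in the SMARCB1 line, and TEK and TIE1 stay below 0.1 CPM in all libraries.

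ANGPT2, the context-dependent antagonist of TEK, lies on the minus strand of chromosome 8 from 6499632 to 6563409 (GRCh38, the build of all gene coordinates given here), and all 10 members are protein-coding. ANGPT2 had 227 and 167 CPM in SMARCB1 DMSO against 95.7 and 86.4 CPM in SMARCB1 Dox. The GFP line gave 135 and 125 CPM with DMSO and 130 and 124 CPM with Dox. The SMARCB1 Dox libraries were the lowest of the 8 and the SMARCB1 DMSO libraries the highest, with the GFP-line libraries in a narrow band between them. These values chose the gene, so its fall in the SMARCB1 line is a description without a test: the log2 fold change was -1.11 ± 0.11 (SE), and the Dox effect differed between the lines by -1.09 ± 0.15. Without SMARCB1 DMSO replicate 1 the fold change was -0.88, and without SMARCB1 DMSO replicate 2 it was -1.32. In the GFP line, which the choice did not use, the log2 fold change was -0.03 ± 0.11 with a 95% interval from -0.25 to 0.20, and it did not pass the test (adjusted p = 1 by edgeR's quasi-likelihood test with Benjamini-Hochberg adjustment over all tested genes).

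The ANGPT2 gene lies inside MCPH1, a gene of chromosome condensation on the opposite strand, and 658 exon bases are shared. Without a stated strand setting, how reads of the pair were assigned is uncertain. Counted without strand, reads inside the shared bases would count for neither gene. MCPH1 reads over other ANGPT2 exons would then count for ANGPT2. MCPH1 had 201 and 196 CPM with DMSO and 155 and 167 with Dox in the SMARCB1 line, against 130 and 143 with DMSO and 138 and 144 with Dox in the GFP line. It moved with ANGPT2 but by less. Its log2 fold change in the SMARCB1 line was -0.30 ± 0.08 (adjusted p = 0.013), which did not pass without SMARCB1 DMSO replicate 1 (adjusted p = 0.058), without SMARCB1 Dox replicate 1 (0.123) or with library totals as the scale (0.122). The part of MCPH1 reads in the ANGPT2 values was not tested.

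ANGPT1, the activating ligand of TEK, lies on the minus strand of chromosome 8 from 107249482 to 107498055. It had 71.7 and 59.3 CPM in SMARCB1 DMSO against 73.2 and 79.3 CPM in SMARCB1 Dox. The GFP line gave 19.5 and 22.2 CPM with DMSO and 20.4 and 22.6 CPM with Dox. Both SMARCB1 Dox libraries were above both SMARCB1 DMSO libraries, but the closest values were near each other. The log2 fold change of 0.22 ± 0.10 did not pass the test (adjusted p = 0.151). It passed at 0.36 without SMARCB1 DMSO replicate 1 (adjusted p = 0.0368), and it fell to 0.09 without SMARCB1 DMSO replicate 2. ANGPT1 in the GFP line changed by 0.04 ± 0.11 (adjusted p = 1).

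The balance of the angiopoietins was lowest in SMARCB1 Dox. The ratio of ANGPT2 to ANGPT1, each per kb of exon, was 3.32 and 2.95 in SMARCB1 DMSO against 1.37 and 1.14 in SMARCB1 Dox. The GFP line gave 7.27 and 5.88 with DMSO and 6.72 and 5.78 with Dox. The groups of the SMARCB1 line did not overlap and those of the GFP line did, and since the ratio contains the ANGPT2 values that chose the gene, it is given without a test.

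**Figure D2:**
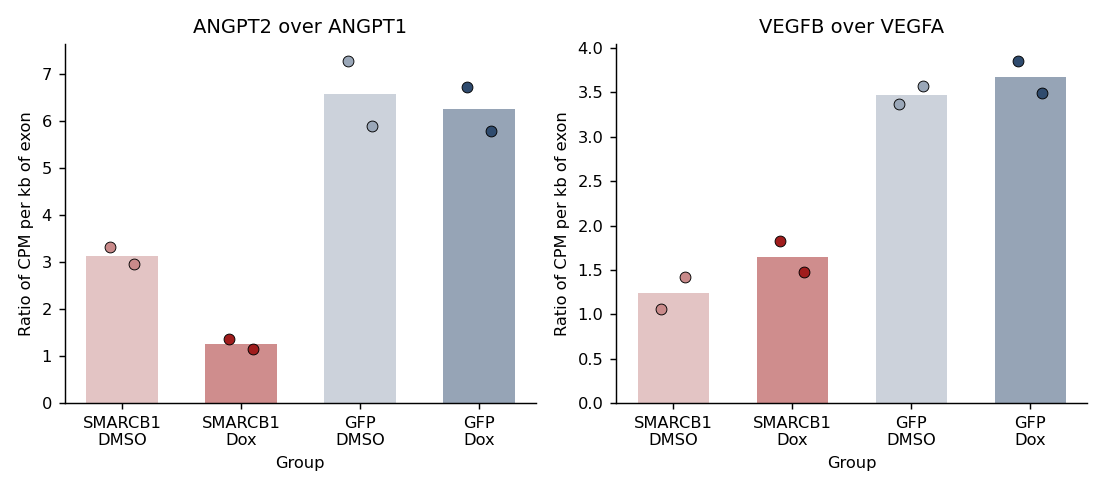
Ratio of CPM per kb of exon for ANGPT2 over ANGPT1 (left) and VEGFB over VEGFA (right), with bars for the group mean of 2 libraries and points for the libraries. The ANGPT2 to ANGPT1 ratio is lowest in SMARCB1 Dox (mean 1.26) and highest in GFP DMSO (6.57), and the VEGFB to VEGFA ratio is above 3 in the GFP line and below 2 in the SMARCB1 line.

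ANGPTL4, a secreted inhibitor of lipoprotein lipase that is also known as a target of PPARs and of hypoxia, lies on the plus strand of chromosome 19 from 8363289 to 8374370. It had 0.892 and 0.758 CPM (DMSO) and 0.899 and 0.858 (Dox) in SMARCB1-line libraries, and 0.711 and 1.30 (DMSO) and 1.01 and 1.31 (Dox) in GFP-line libraries. DMSO and Dox libraries overlapped in both lines. The log2 fold change in the SMARCB1 line was 0.09 ± 0.38 with a 95% interval from -0.70 to 0.89, so a change below that size was not detectable at this depth.

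VEGFA, the main ligand of vessel growth, lies on the plus strand of chromosome 6 from 43770184 to 43786487. It had 23.0 and 16.5 CPM with DMSO and 25.4 and 19.6 with Dox in the SMARCB1 line, against 17.1 and 17.4 with DMSO and 15.8 and 16.1 with Dox in the GFP line. The SMARCB1-line libraries overlapped, with more distance between replicates than between groups. The log2 fold change was 0.19 ± 0.14 in the SMARCB1 line (adjusted p = 0.424), and the GFP line gave -0.11 ± 0.14 (adjusted p = 1). A long noncoding RNA on the opposite strand shares all its 188 exon bases with VEGFA and had at most 1 count in a library. Counting without strand would leave it almost no reads at any level, so its part in the VEGFA reads is not known.

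VEGFB, a FLT1 ligand linked to fatty acid uptake and to survival of vessels, lies on the plus strand of chromosome 11 from 64234584 to 64239264, just after the GC-rich window printed above. It had 3.33 and 3.21 CPM in SMARCB1 DMSO against 6.35 and 3.95 CPM in SMARCB1 Dox. The GFP line gave 7.88 and 8.49 CPM with DMSO and 8.31 and 7.71 CPM with Dox. Both SMARCB1 Dox libraries were above SMARCB1 DMSO and below every GFP-line library. VEGFB rose in the SMARCB1 line by 0.66 ± 0.20 on the log2 scale (1.58-fold, adjusted p = 0.0293), with an interval from 0.24 to 1.07. The call was lost without SMARCB1 DMSO replicate 1 (0.68, adjusted p = 0.086), without SMARCB1 DMSO replicate 2 (0.63, 0.101) and without SMARCB1 Dox replicate 1 (0.27, 0.506), and it was kept without SMARCB1 Dox replicate 2 (0.96, 0.00185). It was also lost when the GC trend of each library was removed (0.50, adjusted p = 0.104) and when the SMARCB1-line libraries were fitted alone (0.0639). In the GFP line VEGFB changed by -0.03 ± 0.17 (adjusted p = 1), and the difference between the Dox effects, 0.69 ± 0.26, did not pass (adjusted p = 0.169). Without SMARCB1 Dox replicate 2 that difference was 0.99 and passed (adjusted p = 0.0171).

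VEGFB and VEGFA are ligands of the same receptor, and their ratio per kb of exon was 1.06 and 1.42 (DMSO) and 1.83 and 1.47 (Dox) in SMARCB1-line libraries, and 3.37 and 3.57 (DMSO) and 3.85 and 3.50 (Dox) in GFP-line libraries. The SMARCB1-line groups nearly met, and all GFP-line values lay above all SMARCB1-line values. The ratio was not tested.

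PGF, the placental growth factor that binds FLT1, lies on the minus strand of chromosome 14 from 74941834 to 74955626. It had 0.995 and 2.12 CPM with DMSO and 1.74 and 1.89 with Dox in the SMARCB1 line, against 0.681 and 0.860 with DMSO and 0.715 and 0.519 with Dox in the GFP line. The SMARCB1 Dox values lay between the SMARCB1 DMSO values. The log2 fold change of 0.21 ± 0.33 did not pass (adjusted p = 0.765), and it turned to -0.23 without SMARCB1 DMSO replicate 1.

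VEGFC, the lymphatic ligand on the minus strand of chromosome 4 from 176683538 to 176792922, was close to the limit of detection. It had 3 and 1 counts (DMSO) and 5 and 5 (Dox) in SMARCB1-line libraries, and 6 and 3 (DMSO) and 0 and 0 (Dox) in GFP-line libraries. A count of 0 allows up to 3 counts, or 0.0974 and 0.082 CPM in the GFP Dox libraries. VEGFC was not tested, and no library held more than 6 of its reads.

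The receptors had few reads. FLT1, the receptor of VEGFA, VEGFB and PGF, lies on the minus strand of chromosome 13 from 28300346 to 28495145. It had 6 and 9 counts with DMSO and 22 and 18 with Dox in the SMARCB1 line, against 4 and 1 with DMSO and 0 and 1 with Dox in the GFP line. Both SMARCB1 Dox libraries were above the other 6 libraries. FLT1 passed the expression filter through these 2 libraries alone, since no library of the other groups reached the limit of 0.292 CPM. It was thus kept for the group in which it was high, and its counts are given as a description without a test. Its GFP-line counts, 5 with DMSO and 1 with Dox in all, are too few for a fold change to be read.

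TEK, the angiopoietin receptor on the plus strand of chromosome 9 from 27109141 to 27230174, had 2 and 0 counts (DMSO) and 3 and 3 (Dox) in SMARCB1-line libraries, and 0 and 1 (DMSO) and 0 and 1 (Dox) in GFP-line libraries. TIE1, on the plus strand of chromosome 1 from 43300982 to 43323108, had 1 count in SMARCB1 Dox replicate 2 and 0 in the other 7 libraries. In a library without a read, the limit of 3 counts was 0.0782 to 0.103 CPM. The ligands ANGPT1 and ANGPT2 were thus read at 19.5 CPM or more in every library, and their receptor at no more than 3 counts.

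ANGPT2 chose the family, so calls were counted over the 6 other members tested. FLT1 is among them, though it was kept only for its SMARCB1 Dox libraries, so its part in counts and medians is a description. In the SMARCB1 line 1 of the 6 passed the test, which was VEGFB, against 14% of all tested genes (8.33% higher and 5.69% lower). The median log2 fold change was 0.21 over the 6 members and -0.004 over all tested genes. In the GFP line 0 of 7 members passed by edgeR, as did 0% of all genes, while 266 genes (1.67%) had an unadjusted p under 0.05 and DESeq2 also called 0 genes. In the difference between the Dox effects edgeR and DESeq2 each called 0 of the 6 members other than ANGPT2. VEGFB had an unadjusted p under 0.05 by edgeR, and 4.71% of all genes were called by edgeR (3.07% higher and 1.64% lower).

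**Figure D3:**
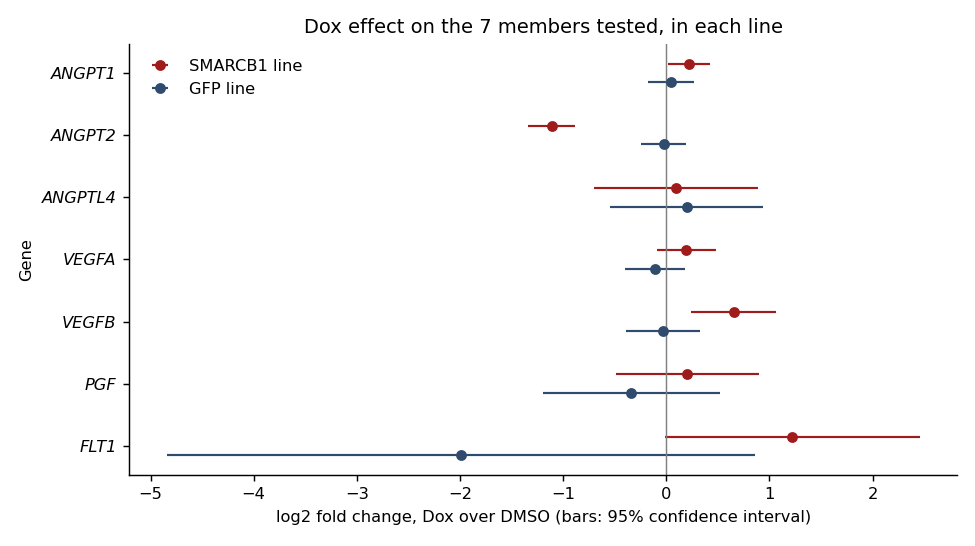
log2 fold change of Dox over DMSO for the 7 members tested, with the SMARCB1 line in red and the GFP line in blue, with bars for the 95% confidence interval. ANGPT2 lies at -1.11 in the SMARCB1 line, VEGFB lies at 0.66 with an interval above 0, and the interval of ANGPT1 starts at 0.02. Every interval of the GFP line spans 0, though that of FLT1 rests on too few counts to be read. FLT1 is drawn as a description, since only its SMARCB1 Dox libraries passed the expression filter.

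The lines also differed before induction. Comparing SMARCB1 DMSO with GFP DMSO, 3 of the 6 members other than ANGPT2 passed the test, 2 higher and 1 lower in the SMARCB1 line, against 32% of all tested genes (16.3% higher and 15.7% lower). ANGPT1 was 3.14-fold higher in SMARCB1 DMSO (log2 1.65 ± 0.10, adjusted p = 2.14e-11). VEGFB was lower by a log2 value of -1.32 ± 0.19 (adjusted p = 1.08e-05), and its rise after Dox left it below the GFP line. ANGPT2 stood 1.52-fold above GFP DMSO in SMARCB1 DMSO (log2 0.60 ± 0.11, and 0.36 without SMARCB1 DMSO replicate 1), given without a test because the SMARCB1 DMSO values took part in choosing it. PGF was 2.03-fold higher (log2 1.02 ± 0.37, adjusted p = 0.0366) from 99 counts against 56 in all. The PGF call was lost without SMARCB1 DMSO replicate 2 (0.36, adjusted p = 0.611), GFP DMSO replicate 1 (0.87, 0.179) or GFP DMSO replicate 2 (adjusted p = 0.0816). VEGFA (0.19 ± 0.14, adjusted p = 0.324) and ANGPTL4 (-0.30 ± 0.38, 0.589) did not pass, and FLT1 had 15 counts against 5 in all. The VEGFA value was 0.41 without SMARCB1 DMSO replicate 2 and turned to -0.064 without SMARCB1 DMSO replicate 1. The line and the trace of SMARCB1 RNA in SMARCB1 DMSO cannot be told apart in this comparison.

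Among 14 further genes of the family, which were the other angiopoietin-like proteins, VEGFD, the receptors KDR and FLT4, the co-receptors NRP1 and NRP2 and the phosphatase PTPRB, 4 had enough reads to be tested and 1 was called in the SMARCB1 line. NRP2, a neuropilin that binds VEGFs and class 3 semaphorins, had 11.5 and 9.55 CPM with DMSO and 30.4 and 29.7 with Dox in the SMARCB1 line, against 1.18 and 1.64 with DMSO and 1.01 and 2.27 with Dox in the GFP line. Every SMARCB1-line library was above every GFP-line library, and NRP2 rose with Dox in the SMARCB1 line by 1.52 ± 0.17 on the log2 scale (adjusted p = 2.13e-06). The difference between the Dox effects was 1.28 ± 0.33 (adjusted p = 0.0236) and was lost without SMARCB1 Dox replicate 1 (1.27, adjusted p = 0.0666), GFP DMSO replicate 2 (1.02, 0.23) or GFP Dox replicate 1 (0.85, 0.144). It was also lost with DESeq2 (1.30, adjusted p = 0.252), and it rose to 2.02 without GFP Dox replicate 2. NRP1, the other neuropilin, had 129 and 104 CPM in SMARCB1 DMSO against 95.8 and 107 CPM in SMARCB1 Dox. Its log2 fold change of -0.20 ± 0.09 did not pass (adjusted p = 0.184). With a library of the SMARCB1 line left out, the value ranged from -0.34, without SMARCB1 DMSO replicate 2, to -0.035. KDR, the main signalling receptor of VEGFA, had no read in any library, and FLT4, the receptor of VEGFC, changed by -0.21 ± 0.17 (adjusted p = 0.499) from 6.62 and 7.58 to 5.90 and 6.41 CPM. The ratio of NRP1 to NRP2 per kb of exon was 13.3 ± 0.266 with DMSO and 4.07 ± 0.38 with Dox in the SMARCB1 line (SD, n = 2), against 93.2 ± 22.5 and 93.8 ± 51.6 in the GFP line.

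Class 3 semaphorins share the neuropilins with VEGFs, and they stood in a list of 31 other angiogenic and antiangiogenic factors, of which 22 were tested. In the SMARCB1 line 6 were called higher and 4 lower, or 45.5% of those tested against 14% of all tested genes. Their median log2 fold change was 0.05. The gene lists were chosen with earlier results of these data known, so their shares of calls are descriptions. Fewer of them were called with any library of the SMARCB1 line left out, as were fewer of all tested genes. SEMA3F, a ligand of NRP2 that repels vessels and axons, had 13.1 and 15.9 CPM (DMSO) and 33.3 and 39.5 (Dox) in SMARCB1-line libraries, and 30.5 and 27.9 (DMSO) and 29.2 and 26.3 (Dox) in GFP-line libraries. The SMARCB1 DMSO libraries were below and the SMARCB1 Dox libraries above every GFP-line library. SEMA3F rose by 1.32 ± 0.12 on the log2 scale (adjusted p = 8.53e-08). SEMA3C fell from 488 and 387 to 297 and 317 CPM (-0.51 ± 0.10, adjusted p = 0.000872), and its log2 fold change was -0.34 without SMARCB1 DMSO replicate 1 (adjusted p = 0.0253). SEMA3A, a ligand of NRP1, fell from 408 and 376 to 271 and 326 CPM (-0.39 ± 0.09, adjusted p = 0.00385), a call lost without SMARCB1 Dox replicate 1 (-0.26, 0.101). ADAMTS1, a protease with antiangiogenic activity, rose by 0.38 ± 0.09 (adjusted p = 0.00872), a call lost without SMARCB1 DMSO replicate 2 (0.21, 0.151) or SMARCB1 Dox replicate 1 (0.34, 0.0743). The remaining lower genes were SEMA3E (-0.37 ± 0.11, adjusted p = 0.0223) and THBS1, the antiangiogenic thrombospondin (-0.30 ± 0.10, 0.0411), and both calls were lost without SMARCB1 DMSO replicate 1 (-0.12 and -0.11), SMARCB1 Dox replicate 1 (-0.42 and -0.25) or SMARCB1 Dox replicate 2 (-0.32 and -0.35). Without SMARCB1 DMSO replicate 2 they were -0.58 and -0.47. Both were also lost when the GC trend was removed (adjusted p = 0.131 and 0.0961), when library totals set the scale (-0.27 and -0.20) and when the SMARCB1-line libraries were fitted alone (0.0515 and 0.0999).

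**Figure D4:**
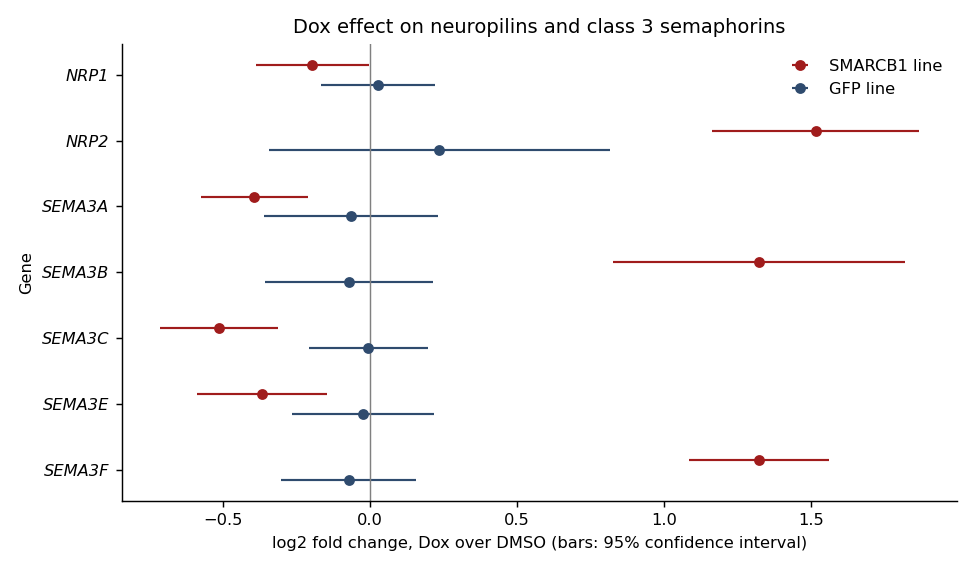
log2 fold change of Dox over DMSO for both neuropilins and for the class 3 semaphorins of the list, with the SMARCB1 line in red and the GFP line in blue, with bars for the 95% confidence interval. NRP2, SEMA3B and SEMA3F lie above 1 and SEMA3A, SEMA3C and SEMA3E below 0 in the SMARCB1 line, and every interval of the GFP line spans 0.

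The semaphorin difference between the lines was tested as well. In the difference between the Dox effects, 3 of the 22 factors were called higher and 1 lower, or 18.2% against 4.71% of all tested genes. These were SEMA3F (1.40 ± 0.16, adjusted p = 1.48e-05), SEMA3B (1.39 ± 0.28, 0.00406), SEMA3C (-0.51 ± 0.14, 0.0332) and PDGFA (2.73 ± 0.47, 0.00115), a growth factor for supporting cells that was chosen after its values were seen. PDGFA had 1.10 and 0.971 CPM in SMARCB1 DMSO against 5.98 and 3.95 in SMARCB1 Dox, and 0.487 to 0.859 in the GFP line. SEMA3B had 0.823 and 1.30 CPM in SMARCB1 DMSO against 2.25 and 3.15 CPM in SMARCB1 Dox, far below its 19.6 to 23.2 CPM in the GFP line. The SEMA3C difference lost its call without any of 5 libraries, which were SMARCB1 DMSO replicate 1 (-0.33), SMARCB1 Dox replicate 1 (-0.46), GFP DMSO replicate 1 (-0.54), GFP DMSO replicate 2 (-0.47) and GFP Dox replicate 1 (-0.42), and also with the GC trend removed (-0.41, adjusted p = 0.0859) or library totals as the scale (-0.42).

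Below the receptors, 28 of 30 signalling genes of the Tie and VEGF pathways were tested. In the SMARCB1 line 7 were called higher and 0 lower, or 25% against 14% of all tested genes, with a median log2 fold change of 0.13. The kinase SRC rose by 0.42 ± 0.10 (adjusted p = 0.00582) from 20.4 and 21.0 to 27.3 and 28.3 CPM. MAP2K1, the kinase that activates ERK, rose by 0.35 ± 0.09 (adjusted p = 0.00998), and PLCG1, the phospholipase recruited by VEGF receptors, by 0.34 ± 0.10 (0.026). The SRC call was kept with any library left out but lost when the GC trend was removed (0.29, adjusted p = 0.0516), as was that of PLCG1 (0.27, 0.0785). The call of MAP2K1 was lost without SMARCB1 DMSO replicate 2 (adjusted p = 0.0693), and that of PLCG1 without SMARCB1 DMSO replicate 1 (0.24) or SMARCB1 Dox replicate 2 (0.164). SPHK1, which makes sphingosine-1-phosphate, was the 1 signalling gene of 28 whose Dox effect differed between the lines in this test (1.10 ± 0.23, adjusted p = 0.00552), a share of 3.57% against 4.71% of all tested genes. It had 1.61 and 1.73 CPM in SMARCB1 DMSO against 3.57 and 3.35 in SMARCB1 Dox, and 17.0 to 21.1 in the GFP line.

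Of 14 transcription factors and oxygen sensors known to act on these genes, 13 were tested. In the SMARCB1 line 7 were called higher and 1 lower, or 61.5% against 14% of all tested genes. Their median log2 fold change was 0.37. This list too was chosen with earlier results known, so its share is a description. EPAS1, the hypoxia-inducible factor of endothelium, had 10.6 and 7.31 CPM in SMARCB1 DMSO against 20.0 and 12.1 CPM in SMARCB1 Dox (0.85 ± 0.20, adjusted p = 0.00482). FOXO1, which drives ANGPT2 in endothelial cells, had 5.90 and 8.46 CPM in SMARCB1 DMSO against 9.55 and 16.0 CPM in SMARCB1 Dox (0.82 ± 0.18, adjusted p = 0.00303). Its level moved opposite to that of ANGPT2 in the SMARCB1 line, and GFP-line libraries held 40.7 to 42.3 CPM. A link between FOXO1 and ANGPT2 was not tested. PPARA, the lipid-sensing receptor, rose by 0.80 ± 0.13 (adjusted p = 0.000215) and FOXC2, a factor of lymphatic vessels, by 0.59 ± 0.13 (0.00351). The single lower gene was ARNT, the partner of the hypoxia-inducible factors (-0.32 ± 0.09, adjusted p = 0.0162), a call lost without SMARCB1 DMSO replicate 2 (0.0957) or SMARCB1 Dox replicate 1 (0.229), and with library totals as the scale (0.117). The call of EPAS1 was lost without SMARCB1 DMSO replicate 2 (0.60, adjusted p = 0.0694) or SMARCB1 Dox replicate 1 (0.44, 0.212), that of FOXO1 without SMARCB1 DMSO replicate 1 (0.59, 0.0537) or SMARCB1 Dox replicate 2 (0.40, 0.123) and with DESeq2 (0.0583), and that of FOXC2 without SMARCB1 Dox replicate 1 (0.53, 0.0515). Fewer regulators were called with any library of the SMARCB1 line left out, as were fewer of all tested genes. When the SMARCB1-line libraries were fitted alone, 5 regulators were called, with 1771 of all tested genes against 2234. In the difference between the Dox effects, EPAS1 (1.14 ± 0.30, adjusted p = 0.0262) and PPARA (0.67 ± 0.19, 0.0413) passed, which is 15.4% of those tested against 4.71% of all genes. EPAS1 no longer did without SMARCB1 DMSO replicate 2, SMARCB1 Dox replicate 1, GFP DMSO replicate 2 or either GFP Dox library (0.73 to 1.25, adjusted p from 0.055 to 0.202). PPARA no longer did without SMARCB1 DMSO replicate 1, SMARCB1 Dox replicate 2, GFP DMSO replicate 1 or either GFP Dox library (0.50 to 0.73, adjusted p from 0.0827 to 0.253), or with DESeq2 (0.0632).

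VEGFA and ANGPTL4 are textbook targets of hypoxia, so 26 other hypoxia targets were described beside them. In the SMARCB1 line 5 of the 22 tested were called higher and 0 lower, or 22.7% against 14% of all tested genes, with a median log2 fold change of 0.05. VLDLR, a lipoprotein receptor, had 3.16 and 1.70 CPM in SMARCB1 DMSO against 9.97 and 8.70 CPM in SMARCB1 Dox (1.96 ± 0.26, adjusted p = 1.85e-05). CA12, a carbonic anhydrase of the cell surface, had 51.7 and 42.4 CPM in SMARCB1 DMSO against 86.1 and 82.5 CPM in SMARCB1 Dox (0.84 ± 0.09, adjusted p = 1.73e-06). The glycolytic genes HK2 and PFKFB3 rose by 0.64 ± 0.09 (adjusted p = 3.34e-05) and 0.50 ± 0.12 (0.00614), the last lost without SMARCB1 DMSO replicate 1 (0.41, 0.0811) or SMARCB1 Dox replicate 1 (0.41, 0.082). In the difference between the Dox effects 4 were called, all higher, or 18.2% against 4.71% of all tested genes. They were CA12 (0.84 ± 0.13, adjusted p = 0.000504), HK2 (0.63 ± 0.13, 0.00479), BNIP3L (0.43 ± 0.12, 0.035) and PFKFB3 (0.62 ± 0.17, 0.038). That of BNIP3L was lost without any library but SMARCB1 DMSO replicate 1 (0.37 to 0.49, adjusted p from 0.0553 to 0.182), that of PFKFB3 without any but SMARCB1 DMSO replicate 2 and SMARCB1 Dox replicate 2 (0.53 to 0.65, 0.093 to 0.154), with DESeq2 (0.0549) or with the GC trend removed (0.54, 0.072), and that of HK2 without GFP DMSO replicate 2 (0.55, 0.0518). Of 12 PPAR targets, which stand beside ANGPTL4, 9 were tested and 0 were called by edgeR in the SMARCB1 line, with a median of 0.11, while the alternatives called 0 to 3. In the GFP line 0 genes of any of these lists were called.

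Between the lines before induction, these lists differed in both directions, as did 32% of all tested genes (16.3% higher and 15.7% lower). NRP2 (2.88 ± 0.22, adjusted p = 7.75e-10) and FLT4 (0.86 ± 0.18, 0.000701) were higher and ANGPTL2 (-1.62 ± 0.11, 7.94e-11) lower in SMARCB1 DMSO than in GFP DMSO. Among the 13 regulators tested 5 were higher and 3 lower (61.5% called), with ETS1, an endothelial transcription factor, at 293 and 314 against 20.8 and 22.4 CPM (3.81 ± 0.09, adjusted p = 1.09e-18) and FOXO1 lower (-2.52 ± 0.17, 7.35e-11). Of the 22 other angiogenic factors tested 11 were higher and 3 lower (63.6%), with SEMA3A at 408 and 376 against 4.74 and 4.38 CPM (6.43 ± 0.12, adjusted p = 5.39e-20) and SEMA3B lower (-4.36 ± 0.20, 5.25e-14). Hypoxia targets were higher in 11 and lower in 3 of 22 (63.6%), with the glucose transporter SLC2A1 at 180 and 136 against 588 and 654 CPM (-1.97 ± 0.11, adjusted p = 2.85e-12). Signalling genes were higher in 6 and lower in 7 of 28 (46.4%), led by SPHK1 (-3.56 ± 0.16, adjusted p = 8.24e-14). Fewer signalling genes were called with any library of these 2 groups left out, as were fewer of all tested genes. Of the 4 rhabdoid line markers, SMARCB1, VIM, KRT8 and KRT18, 2 were higher and 2 lower (100%). PPAR targets were higher in 3 and lower in 2 of 9 (55.6%). Fewer of them were called without SMARCB1 DMSO replicate 2 or either GFP DMSO library, as were fewer of all tested genes.

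Markers of other cell types moved with Dox in the SMARCB1 line in a few genes. Of 14 endothelial markers 4 were tested, with 1 called higher and 1 lower, or 50% against 14% of all tested genes. Their median log2 fold change was 0.505. Of 8 blood cell markers 2 were tested and 1 was called, lower (50%). In the difference between the Dox effects 1 of the 4 endothelial markers was called, or 25% against 4.71% of all tested genes. MMRN1 had 852 and 668 CPM in SMARCB1 DMSO against 450 and 476 in SMARCB1 Dox, and 793 to 850 in the GFP line. It fell by 0.72 ± 0.10 on the log2 scale (adjusted p = 2.47e-05) and its Dox effect differed between the lines (-0.71 ± 0.14, adjusted p = 0.00342), the same direction as ANGPT2. Without SMARCB1 DMSO replicate 1 its log2 fold change was -0.53 (adjusted p = 0.000328). EGFL7, a secreted endothelial protein, rose by 0.36 ± 0.11 (adjusted p = 0.0277), a call lost without SMARCB1 DMSO replicate 1 (0.106), SMARCB1 DMSO replicate 2 (0.0912) or SMARCB1 Dox replicate 1 (0.283). The EGFL7 value shrank to 0.13 when the GC trend was removed (adjusted p = 0.446), and the call was lost when the SMARCB1-line libraries were fitted alone (0.0572). The 14 endothelial markers summed to 687 to 872 CPM (SMARCB1 DMSO), 478 to 499 (SMARCB1 Dox), 829 to 863 (GFP DMSO) and 812 to 868 (GFP Dox), and without MMRN1 to 19.1 to 19.5, 23.5 to 27.8, 19.6 to 19.9 and 18.6 to 18.7 CPM. The 8 blood cell markers summed to 4.03 to 6.45 CPM over all libraries, and CD68, a lysosomal protein of macrophages, fell by 0.90 ± 0.26 (adjusted p = 0.0222), a call lost with DESeq2 (0.0542) and without SMARCB1 DMSO replicate 1 (0.0813), SMARCB1 DMSO replicate 2 (0.0524) or SMARCB1 Dox replicate 2 (0.209). Among the remaining endothelial markers, PECAM1 had at most 3 counts in a library, VWF at most 19 and SOX18 at most 69. CDH5, the cadherin of endothelial junctions, had 5 and 7 counts in SMARCB1 DMSO against 16 and 9 in SMARCB1 Dox, and 0 to 3 in the GFP line. CLDN5, an endothelial claudin, had 7 and 1 counts against 10 and 9, and ESAM 7 and 1 against 15 and 7. The part of these markers in the results of the family was not tested.

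The genes whose RNA followed ANGPT2 most closely over the 8 libraries were SLC35F2 (Pearson r 0.985), B4GALNT1 (0.983), BLTP2 (0.98), KCNG3 (0.98) and SLC5A6 (0.97), out of 9465 protein-coding genes at a mean of at least 5 CPM. The r values compare log2 CPM over libraries that share their lines and treatments, and they are a description. All 5 were lower in SMARCB1 Dox than in SMARCB1 DMSO, which follows from choosing them by their likeness to ANGPT2. Levels went from 156 to 127 CPM for SLC35F2, a transporter of the solute carrier family, and from 109 to 74.5 CPM for B4GALNT1, a ganglioside synthase. The log2 fold changes of the 5 lay between -0.16 and -0.55, smaller than that of ANGPT2. Within the 4 SMARCB1-line libraries, COMMD8, DNAH14, CEP120, ZNF566 and PCSK7 came closest, each with r rounding to 1. So high an r is easily reached when 9465 genes are searched over 4 libraries. VEGFA was followed most closely by RASSF1 (0.989), AGPAT1 (0.977), RARS2 (0.971), RCE1 (0.969) and ADAMTSL4 (0.964), whose log2 fold changes in the SMARCB1 line lay between 0.07 and 0.22.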

How the data were processed

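RNA-seq was analysed from 8 libraries of G401 cells. The authors deposited raw read counts per gene, made with STAR and HTSeq in intersection-strict mode over exons of GENCODE v42 on hg38, per the labels and the study's methods. Tool versions and the strand setting were not given in the sources used here, and the labels and methods name different library kits, so counts of genes that overlap on opposite strands were uncertain. The 5 entries naming no gene held 27% to 29.3% of reads and were left out. Symbols, positions and exon lengths came from GENCODE v44, which matched 62625 of 69215 genes.

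Counts were tested with edgeR (4.0.16, R 4.3.3), after filterByExpr and TMM scaling, by its quasi-likelihood method with 4 group means over all 8 libraries. A gene counted as called if its p, adjusted by Benjamini-Hochberg over the 15931 genes tested, was under 0.05. The F statistic gave the standard errors, and the steps were tested on simulated data. Alternatives were DESeq2 (1.42.0, the tool named in the study's methods), other scalings and filters, fits of the compared groups alone, the replicate number as a block, removal of each library's GC trend, removal of mitochondrially encoded genes, and each library left out in turn. They were applied to the listed genes and list counts after seeing the data.

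The members, gene lists and tests were chosen with earlier results of these data known. All 10 members were named, besides overlapping genes and, per list and comparison, up to 4 called genes of largest absolute log2 change at a mean of at least 5 CPM. Some genes that this rule names are not reported here. CD68, ARNT, PDGFA, SEMA3E, THBS1, NRP1 and, for the SMARCB1 line, FLT4 were named outside this rule after their values were seen. Likeness was the Pearson r of log2 CPM with a prior count of 2. Limits for genes without reads used a floor of 3 counts and cover counting error only. Promoter sequences came from RefSeq (GRCh38.p14).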

Additional observations from a re-analysis of the deposited data

Results flagged for a closer look

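For 13 genes described above the test of the difference between the Dox effects of the SMARCB1 line and of the GFP line was passed, and each is given as that difference on the log2 scale. ANGPT2 at -1.09 chose the family, and it stands beside them as a description without a test. The co-receptor was NRP2 at 1.28. The growth factor PDGFA stood at 2.73. The semaphorins were SEMA3F at 1.40, SEMA3B at 1.39 and SEMA3C at -0.51. The regulators and the signalling gene were EPAS1 at 1.14, PPARA at 0.67 and SPHK1 at 1.10. The hypoxia targets were CA12 at 0.84, HK2 at 0.63, PFKFB3 at 0.62 and BNIP3L at 0.43, and the endothelial marker was MMRN1 at -0.71. Among all tested genes 750 passed. With a library left out or under DESeq2, several of these calls were lost, as given with each gene above. All groups held 2 libraries, too few to test a library for standing apart from its group.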

How the results depend on the processing

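The members called in the SMARCB1 line were 2 of 7, or 1 when only the SMARCB1-line libraries were fitted (VEGFB, adjusted p = 0.0639), 3 under scaling by library totals without TMM factors, and 1 to 2 with a library left out. These counts and those of the difference include ANGPT2, whose values chose the family, so its call in them is no test. In the difference between the Dox effects they were 1, or 1 to 2 with a library left out. Among all tested genes, calls in the SMARCB1 line ranged from 1284 to 2009 with a library left out (2234 with all), those of the difference from 390 to 805 (750), and the GFP line gave 1 call without an expression filter. Scaling by library totals without TMM factors moved the share of higher calls from 59.4% to 80% in the SMARCB1 line, from 65.2% to 80.8% in the difference and from 50.9% to 32.1% between the DMSO groups, as the medians of all genes moved to 0.09, 0.07 and -0.10. ANGPT1 passed in the SMARCB1 line under that scaling (0.32, adjusted p = 0.0223) and with the GC trend removed (0.38, 0.0084), and the PGF call between the DMSO groups was lost under it (0.0508), with DESeq2 (0.116) and in the fit of these groups alone (0.0552). The causes were not tested.

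Values near 0 changed sign. ANGPTL4 in the SMARCB1 line was -0.054 with the GC trend removed and -0.05 with the replicate block as well. With a library left out, the log2 values in the SMARCB1 line ranged from -0.022 to 0.21 for ANGPTL4, from -0.23 to 0.87 for PGF and from -0.031 to 0.45 for VEGFA. In the GFP line they ranged from -0.049 to 0.136 for ANGPT1, from -0.088 to 0.031 for ANGPT2, from -0.162 to 0.705 for ANGPTL4 and from -0.092 to 0.02 for VEGFB. The difference for ANGPTL4 ranged from -0.61 to 0.26. Between the DMSO groups VEGFA ranged from -0.064 to 0.41 and ANGPTL4 from -0.66 to 0.20.

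The replicate numbers paired the samples weakly at most: the correlations of the deviations of same-numbered libraries were all positive, from 0.031 to 0.148. The highest was that between SMARCB1 DMSO and SMARCB1 Dox. With the number as a replicate block, 3149 genes were called in the SMARCB1 line, 0 in the GFP line, 1282 in the difference (1254 with the GC trend removed as well) and 5977 between the DMSO groups, and no member changed its call under the block alone. With 2 libraries a group, and few reads for PGF and ANGPTL4, only wide intervals could be given for these genes.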
